A study of Mus musculus with 239 samples.

Results

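The small leucine-rich proteoglycans described here are 6 genes, Dcn, Fmod, Bgn, Lum, Ogn and Prelp, of the 18850 genes measured in single cells of the mouse mammary gland. They were selected on measured values, since Dcn and Fmod are among the genes most raised in pregnant basal cells. The levels of Dcn and Fmod in pregnant basal cells, against any other group, describe that choice and support nothing by themselves. The cells came from FVB mice aged 3 to 4 months, either at day 12 of pregnancy (12.5 in the protocol) or virgin, with no transgene or drug named. After depletion of haematopoietic and endothelial cells, cells with high CD29 and intermediate CD24 were sorted as basal, those with low CD29 and high CD24 as luminal, and single cells were captured for RNA-seq. The basal gate gave 136 cells, of which all but 34 came from pregnant mice, and the luminal gate gave 49 pregnant and 54 virgin cells. No label ties a cell to a mouse, chip or day, so each group counts as 1 sample, no test between groups was possible, and every difference below has no replicate check.

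Small leucine-rich proteoglycans are secreted core proteins built from leucine-rich repeats, most of which carry chondroitin, dermatan or keratan sulfate chains. They bind collagen fibrils and set their spacing and width, and several bind TGF-beta and cell surface receptors. In the mammary gland they are best known as products of stromal fibroblasts. Basal cells, which are largely contractile myoepithelial cells, lie between the luminal cells and the basement membrane.

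Values are FPKM, that is fragments per kilobase of transcript and per mapped total. A cell is counted as having a gene at 1 FPKM or more, and a difference is between means over cells of log2(FPKM + 1), with 1 on this scale as the size that is counted. Depth, read from the steps between low values, had a median of 9.11 M fragments (M for mega) in pregnant basal, 6.18 M in virgin basal, 8.86 M in pregnant luminal and 8.54 M in virgin luminal cells, and single cells lay between 1.15 and 39.9 M. Pregnant basal cells had a median of 2734.5 genes and virgin basal cells 1825, while pregnant luminal cells had 3653 and virgin luminal cells 3773. At least 2000 genes were found in 93 pregnant basal but only 12 virgin basal cells, so most differences between these groups are given for those cells as well. The 12 include virgin basal cell 15 (2026 genes), whose fibroblast markers are described below. They also include virgin basal cells 27 to 32, with 20.7 to 39.9 M fragments, where no pregnant basal cell was above 11.7 M. Cells with at least 2000 genes are thus not matched in depth. Fewer genes per cell, pregnancy and unlabelled batches cannot be told apart over all cells.

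Some cells carried markers that went against their gate, by limits chosen after the data had been seen. Virgin basal cell 15 had 8 of 12 fibroblast markers and Krt5 (a basal keratin) at 0. It also had 3 of 8 basal markers, which were Krt14 (143 FPKM), Krt17 and Acta2. Krt5 was found in only 19 of 34 virgin basal cells, so its absence does not set cell 15 apart. Pregnant luminal cell 37 had 11 of 12 fibroblast markers. At least 3 of 8 endothelial markers were found in 4 pregnant basal, 6 virgin basal, 1 pregnant luminal and 0 virgin luminal cells. In the luminal gate, 4 pregnant cells and 0 virgin cells had at least 4 of 8 basal markers. These cells are called marker-discordant below. Of the gate checks, Krt14 was found in all but 1 of the pregnant basal and in 28 of 34 virgin basal cells. Krt18, a luminal keratin, was found in all 49 pregnant luminal and all 54 virgin luminal cells. Krt18 also passed 1 FPKM in some cells of both basal groups, and Krt5 was below 1 FPKM in some cells of both. At least 4 of 8 basal markers were found in 97 pregnant basal and 26 of 34 virgin basal cells. At least 4 of 8 luminal markers were found in 12 pregnant basal and 3 virgin basal cells.

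The members lie at 4 loci (GENCODE annotation of GRCm38). Fmod occupies chromosome 1 from 134037254 to 134048277 on the plus strand, and Prelp lies on the minus strand of the same chromosome from 133910304 to 133921414, with 115839 bases between them. Dcn (chromosome 10, 97479609 to 97518143) and Lum (chromosome 10, 97565128 to 97572703) are both on the plus strand, 46984 bases apart. Ogn is on chromosome 13 from 49608046 to 49624501 and Bgn on chromosome X from 73483602 to 73495933, both on the plus strand. Ogn, Omd, Aspn and Ecm2 lie within the span of Cenpp on its opposite strand, and no source used here says that strand was used in counting, so the values of these genes are uncertain.

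The 250 bases before the annotated start are shown for Fmod and Prelp, neighbours with unlike patterns, and for Bgn, which was found in most of the cells that had Fmod. They are RefSeq sequences of build GRCm38.p6, written 5′ to 3′ on the gene's strand, with capitals for CAGAC (a SMAD-binding element) in Fmod and Prelp and for GGGCGG (an Sp/KLF element) in Bgn, each on either strand.
Fmod: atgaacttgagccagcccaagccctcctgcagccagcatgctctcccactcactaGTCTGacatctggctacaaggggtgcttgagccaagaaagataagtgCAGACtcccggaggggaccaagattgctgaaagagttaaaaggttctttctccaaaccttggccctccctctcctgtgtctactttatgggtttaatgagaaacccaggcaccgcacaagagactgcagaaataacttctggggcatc
Prelp: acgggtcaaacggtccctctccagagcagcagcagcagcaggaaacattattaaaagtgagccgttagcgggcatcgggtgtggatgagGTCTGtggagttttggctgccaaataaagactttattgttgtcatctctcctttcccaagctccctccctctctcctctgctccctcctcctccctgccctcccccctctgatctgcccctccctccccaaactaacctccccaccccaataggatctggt
Bgn: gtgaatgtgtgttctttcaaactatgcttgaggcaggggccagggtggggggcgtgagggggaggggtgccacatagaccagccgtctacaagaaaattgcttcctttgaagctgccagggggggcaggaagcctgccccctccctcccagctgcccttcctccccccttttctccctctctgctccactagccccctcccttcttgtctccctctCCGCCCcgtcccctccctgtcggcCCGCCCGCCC
CAGAC was matched 2 times in Fmod and 1 time in Prelp, and 42.2% of 32851 promoters of the same length hold it. GGGCGG was matched 3 times in Bgn, with 2 of the matches overlapping, against 32.7% of promoters with a match. The TATA box (letters TATAAA) was in none of the 3 windows, and neither was the TEAD element (letters GGAATG). The AP-1 motif (letters TGANTCA), the STAT motif (letters TTCNNNGAA) and the CArG box were searched as well and had no match there. RefSeq gave 4 of the 6 members (Fmod, Bgn, Ogn and Prelp). These matches are a description of letters only.

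**Figure D1:**
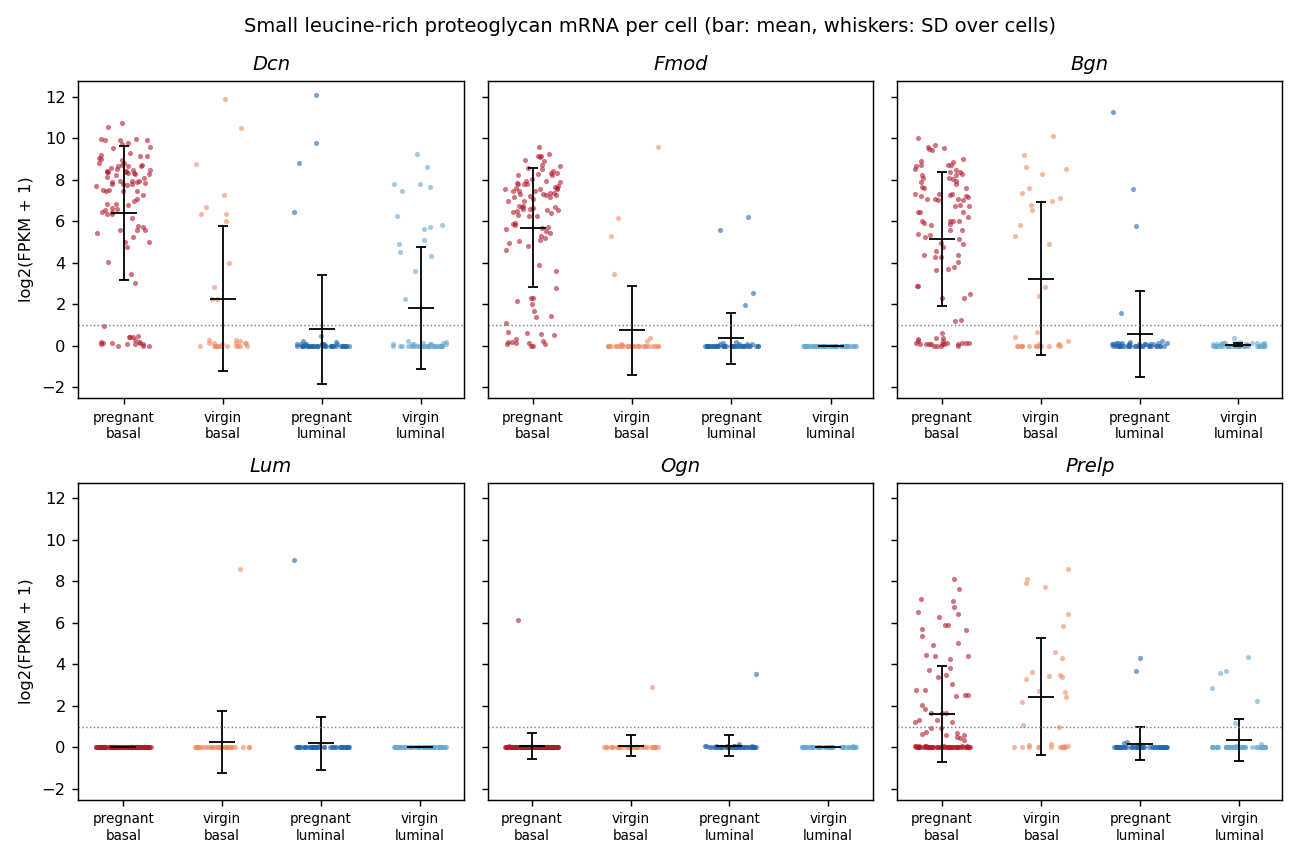
Each point is 1 cell, the vertical axis is log2(FPKM + 1), the bar is the mean and the whiskers the SD over cells, and the dotted line marks 1 FPKM. Dcn, Fmod and Bgn fill the upper range in pregnant basal cells, Prelp is spread over both basal groups, and Lum and Ogn appear in single cells.

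Dcn encodes decorin, a collagen-binding proteoglycan with a single chondroitin or dermatan sulfate chain. It was found in 84 pregnant basal cells (82.4%, exact 95% interval 73.6 to 89.2), where it had a lowest value of 0, a median of 208 and a highest of 1691 FPKM. In virgin basal cells it was found in 12 of 34 (35.3%, 19.7 to 53.5), with a lowest of 0, a median of 0.0918 and a highest of 3788 FPKM. The groups overlapped up to the highest pregnant basal value, and the highest virgin basal value, above it, belonged to cell 15, the cell with 8 fibroblast markers. Intervals throughout cover the counting of cells only. The mean of log2(FPKM + 1) for Dcn was 6.40 ± 3.22 in pregnant basal cells and 2.25 ± 3.50 in virgin basal cells (SD over cells), a difference of 4.15.

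How far Dcn differed depended on which cells and which mean were used. Among cells with at least 2000 genes, Dcn was found in 79 of 93 pregnant basal and 9 of 12 virgin basal cells, and the difference was 1.98. Those 12 cells include cell 15, which had the highest virgin basal Dcn value, and the difference without it was not computed in this set. Mean Dcn over all cells was 281 FPKM in pregnant basal and 181 FPKM in virgin basal cells, a log2 ratio of 0.63. Without cell 15, mean Dcn in virgin basal cells was 71.9 FPKM.

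Fmod encodes fibromodulin, a keratan sulfate proteoglycan that binds collagen and TGF-beta. It was found in 88 pregnant basal cells (86.3%, 78.04 to 92.3), with a lowest of 0, a median of 99.4 and a highest of 757 FPKM. In virgin basal cells it was found in 4 of 34 (11.8%, 3.30 to 27.5), with a lowest and a median of 0 and a highest of 758 FPKM. One virgin basal cell thus reached the top of the pregnant range, while most had none. The mean of log2(FPKM + 1) for Fmod was 5.69 ± 2.86 in pregnant basal and 0.74 ± 2.14 in virgin basal cells (SD over cells), a difference of 4.95. The difference for Fmod was 4.60 in cells of 2000 genes or more, where Fmod was found in 83 of 93 pregnant basal and 3 of 12 virgin basal cells.

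Bgn encodes biglycan, the close relative of decorin, whose free form is a ligand of Toll-like receptors. It was found in 80 pregnant basal cells (78.4%, 69.2 to 85.96) and 16 of 34 virgin basal cells (47.1%, 29.8 to 64.9). The lowest value was 0 in both groups, the median 63.4 FPKM in pregnant basal and 0.452 FPKM in virgin basal cells, and the highest 1027 FPKM in pregnant basal and 1087 FPKM in virgin basal cells. The groups overlapped over nearly all of this range. The difference of mean log2 values for Bgn was 1.91, but 0.15 among cells with at least 2000 genes, where Bgn was found in 76 of 93 pregnant basal and 10 of 12 virgin basal cells.

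Prelp encodes a basement membrane-associated member with a basic N-terminus, and it ran the other way. It was found in 38 pregnant basal cells (37.3%, 27.9 to 47.4) and 18 of 34 virgin basal cells (52.9%, 35.1 to 70.2). Its lowest value was 0 in both groups, its median 0.0386 FPKM in pregnant basal and 2.31 FPKM in virgin basal cells, and its highest 273 FPKM in pregnant basal and 390 FPKM in virgin basal cells. The difference for Prelp was -0.84 over all cells and -1.54 among cells with at least 2000 genes, in which it was found in 37 of 93 pregnant basal and 9 of 12 virgin basal cells.

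Lum, which encodes lumican, and Ogn, which encodes osteoglycin (mimecan), were nearly absent from epithelial profiles. Lum was listed at 0 in every pregnant basal cell (upper limit from 3 cells, 2.94%) and in all 54 virgin luminal cells. The cells with Lum were virgin basal cell 15 at 391 FPKM and pregnant luminal cell 37 at 524 FPKM, the same cells that had the most fibroblast markers. Ogn was found in 1 pregnant basal cell at 68.5 FPKM, in virgin basal cell 15 at 6.58 FPKM, in pregnant luminal cell 37 at 10.6 FPKM and in 0 virgin luminal cells. The pregnant minus virgin basal difference among cells with at least 2000 genes was -0.72 for Lum and -0.18 for Ogn. Virgin basal cell 15 is among those cells, and no other virgin basal cell had Lum or Ogn.

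Between pregnant and virgin basal cells, 3 of the 6 members (Fmod, Dcn and Bgn) were higher by at least 1 and 0 were lower, where 9.43% of the 13130 genes compared (those at 1 FPKM or more in at least 1 cell of the pair of groups) were higher and 0.373% lower. The choice of members used this comparison, so nothing is read from that count. The median difference was 0.94 over the members and 0.11 over all genes compared. Of the genes past that size, 96.2% were higher over all cells but 71.2% among cells with at least 2000 genes, where Fmod and Dcn stayed past 1 and Prelp was lower by more than 1. Without marker-discordant cells the differences were 4.92 for Fmod, 4.29 for Dcn, 1.53 for Bgn and -1.33 for Prelp. By the log2 ratio of mean FPKM they were 2.47 for Fmod, 0.63 for Dcn, 0.48 for Bgn and -1.31 for Prelp, and with a pseudocount of 10 Bgn was at 0.99.

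**Figure D2:**
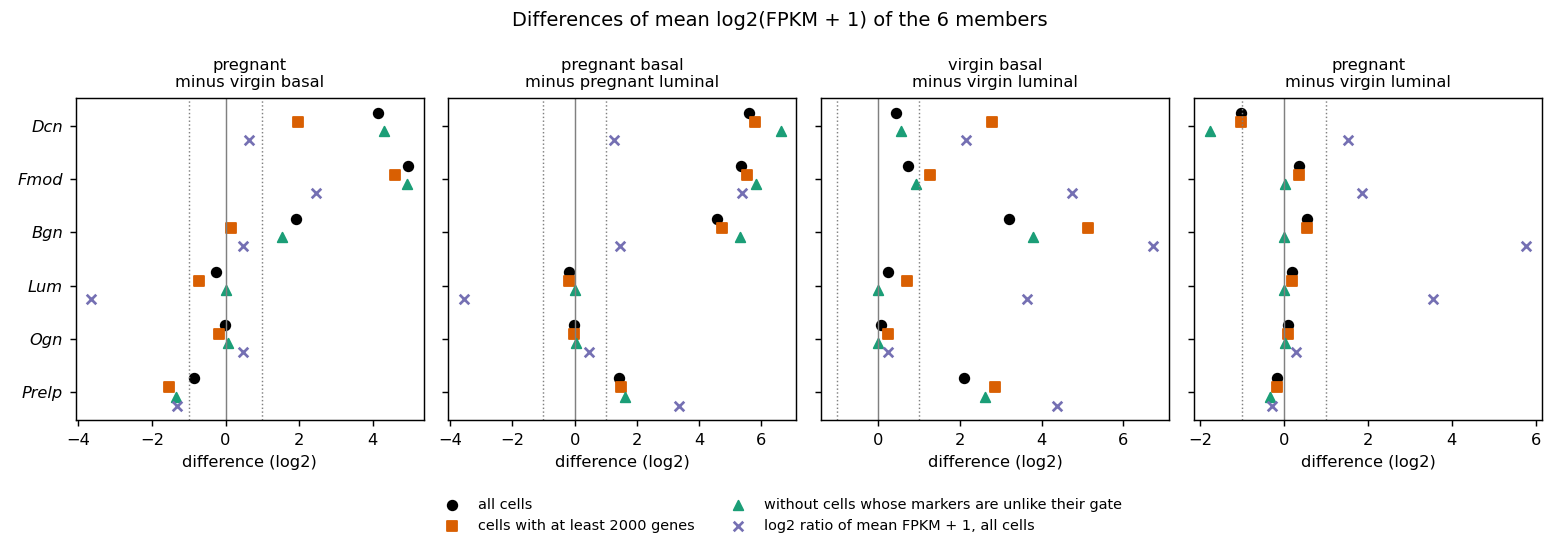
Differences of mean log2(FPKM + 1) of the 6 members (rows) in 4 comparisons (panels), with dotted lines at a size of 1. Circles are all cells, squares are cells with at least 2000 genes, triangles leave out marker-discordant cells, and crosses are log2 ratios of mean FPKM. In pregnant minus virgin basal cells the squares lie at 4.60 for Fmod, 1.98 for Dcn and 0.15 for Bgn.

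Pregnant basal cells also stood above pregnant luminal cells. Members higher by at least 1 were 4 of 6, with differences of 5.61 for Dcn, 5.34 for Fmod, 4.57 for Bgn and 1.43 for Prelp, and 0 were lower. Of 13740 genes compared, 3.97% were higher and 12.3% lower. The median difference was 3.00 over the members and -0.10 over all genes compared. Dcn and Fmod were chosen for their levels in pregnant basal cells, so nothing is read from this count or median either. Among cells with at least 2000 genes the same 4 members were past 1. By the log2 ratio of mean FPKM, Dcn was at 1.27, Bgn at 1.44, Fmod at 5.37 and Prelp at 3.36, and Lum, which among pregnant luminal cells reached 1 FPKM in that cell alone, was at -3.55.

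In pregnant luminal cells, Dcn, Fmod and Bgn were each found in 4 of 49 cells (8.16%, 2.27 to 19.6), and their medians were 0. The highest values in pregnant luminal cells were 4284 FPKM for Dcn, 71.98 FPKM for Fmod and 2467 FPKM for Bgn. All of these detections fell in 5 cells, which were cell 37 and the 4 luminal-gate cells with at least 4 basal markers. Cell 5, for example, had Dcn at 862 FPKM, Fmod at 71.98 FPKM, Krt14 at 981 FPKM and Acta2 at 6465 FPKM. Without marker-discordant cells, Dcn was found in 0 of 43 pregnant luminal cells and its highest value was 0.366 FPKM.

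In virgin mice the order of the members differed. Virgin basal cells were higher than virgin luminal cells by at least 1 for 2 of 6 members, Bgn (3.19) and Prelp (2.11), and lower for 0, where 1.91% of 13203 genes compared were higher and 21.1% lower. Dcn differed by 0.44 and Fmod by 0.74. Among cells with at least 2000 genes the differences were 5.14 for Bgn, 2.87 for Prelp, 2.79 for Dcn and 1.28 for Fmod. Virgin luminal cells held no Fmod, at 0 in all 54 (upper limit 5.56%), and their highest Bgn value was 0.276 FPKM.

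Dcn was the member most often found in virgin luminal cells, followed by Prelp, which was in 2 of 49 pregnant luminal and 6 of 54 virgin luminal cells. Dcn was found in 4 of 49 pregnant luminal and 16 of 54 virgin luminal cells (29.6%, 17.98 to 43.6), with a highest virgin value of 597 FPKM. The difference, pregnant minus virgin luminal, was -1.02, and 1 of 6 members (Dcn) was lower by at least 1 and 0 higher, where 3.89% of 13429 genes compared were lower and 3.73% higher. Without marker-discordant cells the difference was -1.77, with Dcn in 0 of 43 pregnant luminal and 16 of 54 virgin luminal cells. The difference turned positive under 2 settings, at 0.10 among the middle cells by genes per cell (25th to 75th percentile) and at 1.52 by the log2 ratio of mean FPKM. All 4 pregnant luminal cells with Dcn were kept in both settings, as in the main setting. The cause of the change of sign was not tested. The middle cells with Dcn were 4 of 26 pregnant luminal and 5 of 23 virgin luminal cells, and cell 37 had Dcn at 4284 FPKM.

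The 16 virgin luminal cells with Dcn were luminal by their markers. Krt8 and Krt18 were found in all 16, Krt5, Acta2 and Trp63 in 0, and the fibroblast collagens Col1a1, Col1a2 and Col3a1 in 0. Of the 8 basal markers, Krt14 was the one found in any of the 16. The summed level of the basal list had a median of 0.113 and a highest value of 86.2 FPKM. Of the 12 fibroblast markers Gsn, the gelsolin gene, was the one that was found, in 12 of 16 cells with Dcn and 17 of 38 without, so that the summed level of the list had a median of 20.2 FPKM with Dcn and 0.817 FPKM without. Its part in the result was not tested. Fmod and Bgn were found in 0 of the 16, and Prelp in 5. Genes of hormone-sensing and progenitor luminal cells were then read in them, chosen after values had been seen. Esr1, the oestrogen receptor gene, was found in 14 of 16 cells with Dcn and 19 of 38 without. Cited1, a transcriptional co-regulator of hormone-sensing cells, was found in 15 of 16 cells with Dcn and 23 of 38 without. Prlr, the prolactin receptor gene, had a median of 180 FPKM with Dcn and 26.7 FPKM without. Elf5, a transcription factor of luminal progenitors, was found in 1 of 16 cells with Dcn and 13 of 38 without, and Kit in 2 of 16 and 12 of 38. Pgr, the progesterone receptor gene, was found in 7 of 16 and 14 of 38. Cells with Dcn had a median of 4014.5 genes and those without 3614.5, and the part of this in the shares was not tested.

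**Figure D3:**
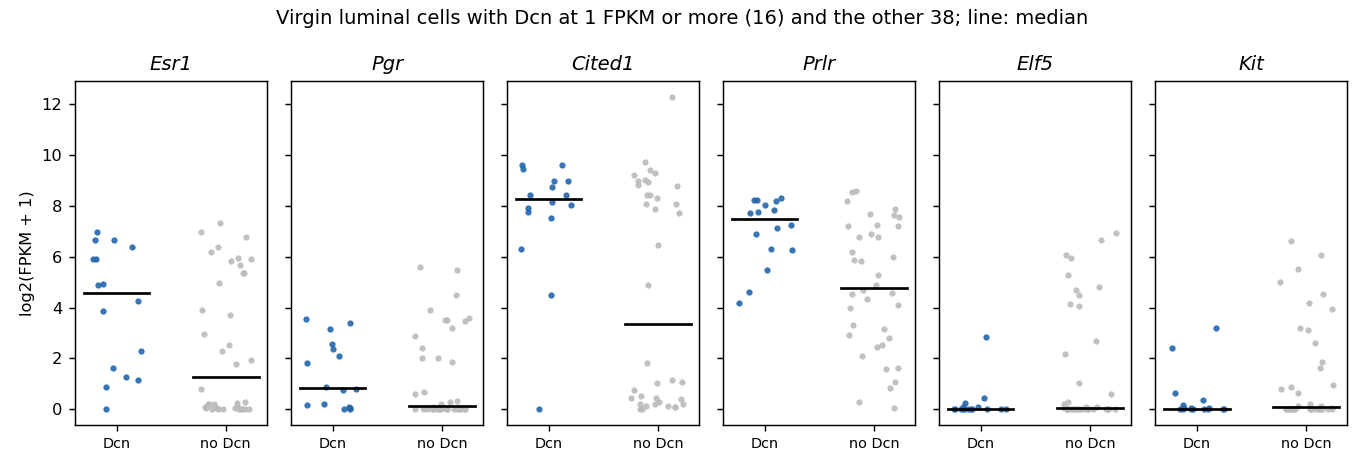
Level of 6 genes, as log2(FPKM + 1), in the 16 virgin luminal cells with Dcn at 1 FPKM or more (blue) and the other 38 (grey), with a line at the median. Esr1, Cited1 and Prlr have higher medians in the cells with Dcn, and Elf5 reaches 1 FPKM in 1 of them.

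Most pregnant basal cells held several members. Dcn, Fmod and Bgn were all present in 65 pregnant basal cells (63.7%, 53.6 to 73.02), against 3 of 34 virgin basal, 2 of 49 pregnant luminal and 0 of 54 virgin luminal cells. At least 2 of the 6 members were found in 90 pregnant basal and 17 of 34 virgin basal cells. Among cells with at least 2000 genes, all of Dcn, Fmod and Bgn were present in 63 of 93 pregnant basal and 2 of 12 virgin basal cells, but at least 2 members in 86 of 93 and 11 of 12. Of pregnant basal cells with Dcn, Fmod was present in 77 of 84, Bgn in 68 and Prelp in 33, whereas of virgin basal cells with Dcn, Fmod was present in 3 of 12, Bgn in 10 and Prelp in 9. Among pregnant basal cells with Dcn these are 91.7% for Fmod, 80.95% for Bgn and 39.3% for Prelp, close to the 86.3%, 78.4% and 37.3% of all pregnant basal cells. In cells with Dcn and at least 2000 genes, Fmod was present in 74 of 79 pregnant basal and 2 of 9 virgin basal cells. Lum was in no pregnant basal cell and Ogn in 1. Levels were only weakly related over pregnant basal cells, with Pearson r of 0.30 for Dcn with Fmod, 0.23 for Fmod with Bgn and 0.17 for Dcn with Bgn, values that share depth and genes per cell.

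The 65 cells with all of Dcn, Fmod and Bgn were basal by their markers. They had a median of 7 of 8 basal markers and 1 of 12 fibroblast markers, with no cell above 3. Pdgfra, Col1a1, Dpt, Mfap5, Pi16 and Mfap4 reached 1 FPKM in none of them. The other 6 were found in at least 1, among them Fbn1, the fibrillin gene, in 39, Gsn in 19, Col1a2 in 5 and Col3a1 in 2. The summed fibroblast-marker level ran from 0 to 313 FPKM with a median of 6.84 FPKM. The 65 cells also had a median of 3 of 8 luminal markers, against 2 over all pregnant basal cells. Their medians were 2897 genes and 9.36 M fragments, against 2460 and 8.12 M in the other 37 pregnant basal cells. The 4 pregnant basal cells with none of Dcn, Fmod and Bgn had Krt5, Krt17, Trp63, Cnn1 and Oxtr in 0 cells, Krt14 in 3 and Acta2 in 4, and a median of 6.5 of 8 endothelial markers. They were not alike, since cell 70 had Krt14 at 8.75 and Acta2 at 11.10 on the log2(FPKM + 1) scale, with Cdh5 and Pecam1 at 0.

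**Figure D4:**
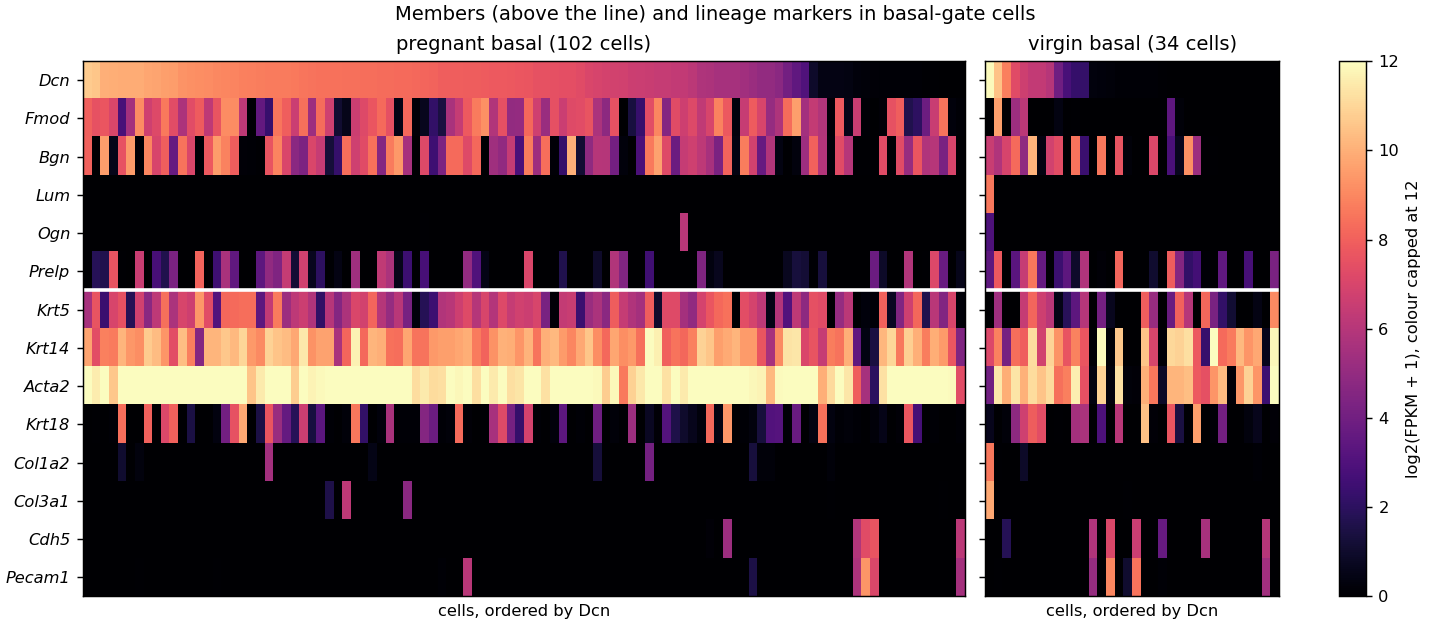
Basal-gate cells (columns, ordered by Dcn within each group) against the 6 members (above the white line) and 8 lineage markers (below it), coloured by log2(FPKM + 1). Acta2 and Krt14 run across nearly all pregnant cells with Dcn, Col1a2 and Col3a1 are mostly dark, and Cdh5 and Pecam1 sit largely with cells that lack Dcn.

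The genes whose levels were most like Dcn across pregnant basal cells, of 3806 genes present in at least 25% of them, were Wif1 (Pearson r 0.48), 1600014C10Rik (0.44), Gas1 (0.44), Gsk3b (0.43) and Cnn1 (0.42), with a median r of 0.05 over all 3806. Those most like Fmod were Acta2 (0.51), Cnn1 (0.50), Tpm2 (0.49), Spon2 (0.48) and 1500015O10Rik (0.47), with a median r of 0.07. Acta2, Cnn1 and Tpm2 encode proteins of the contractile apparatus. Dcn and Fmod had r of 0.24 and 0.23 with the number of genes per cell.

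Of 11 other family members in the table, 7 could be compared between pregnant and virgin basal cells and 7 between pregnant basal and pregnant luminal cells. In both comparisons 0 differed by 1 or more, over all cells or among those with at least 2000 genes. Of all genes, 9.43% were higher and 0.373% lower in pregnant than in virgin basal cells. Against pregnant luminal cells 3.97% were higher and 12.3% lower. With so few genes, nothing is read from a count of 0. Omd, which encodes osteomodulin, was the one found at 1 FPKM or more in most cells, in 99 pregnant basal, 30 of 34 virgin basal, 49 of 49 pregnant luminal and 53 of 54 virgin luminal cells, with the reservation on Cenpp given above.

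Enzymes that build the sugar chains were measured next. Of 22 genes for the linker and for chondroitin or dermatan sulfate, 19 could be compared, and 2 were higher and 0 lower in pregnant than in virgin basal cells, where 9.43% of all genes were higher and 0.373% lower. The list median, taken over all 22 genes, was 0.11, and the median over all genes compared was also 0.11. The 2 were Chsy1, a chondroitin polymerising enzyme (1.73), and Dse, the epimerase that turns chondroitin into dermatan sulfate (1.08). Chsy1 was found in 47 pregnant basal and 5 of 34 virgin basal cells, and Dse in 49 and 7. Among cells with at least 2000 genes, the differences were 1.40 for Chsy1 and 1.02 for Dse. Against pregnant luminal cells, 4 of 19 were higher and 0 lower, where 3.97% of all genes were higher and 12.3% lower: Chsy1 (1.44), Chst11 (1.18), Dse (1.11) and Chst15 (1.08). Of 9 keratan sulfate genes, 6 could be compared, and 0 differed by 1 between pregnant and virgin basal cells, over all cells or among those with at least 2000 genes. B4galt1, a galactosyltransferase also used in lactose synthesis, was lower in pregnant basal than pregnant luminal cells (-3.55).

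Among 16 ligands and receptors of the core proteins, 2 were higher and 0 lower in pregnant than in virgin basal cells, beside the 9.43% and 0.373% of all genes, and the list median was 0.03. Tgfbr3, which encodes betaglycan, a TGF-beta co-receptor, averaged 397 FPKM in pregnant basal, 96.8 FPKM in virgin basal and 38.1 FPKM in pregnant luminal cells. It differed by 4.05 between pregnant and virgin basal cells, and by 1.71 among those with at least 2000 genes. The other was Itgb1, which encodes the sort antigen CD29, at 1.65 over all cells and -0.22 among cells with at least 2000 genes. Against pregnant luminal cells 3 were higher, Tgfbr3 (5.20), Itgb1 (2.01) and Igf1r (1.67), and 2 lower, Tgfb2 (-1.89) and Tlr2 (-1.31). Of all genes, 3.97% were higher and 12.3% lower in that comparison.

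Of 12 TGF-beta target genes, 11 could be compared, and 3 were higher and 1 lower in pregnant than in virgin basal cells, beside the 9.43% and 0.373% of all genes. Ctgf, a matricellular protein gene, differed by 2.67, Thbs1 (thrombospondin) by 2.66, Postn (periostin) by 2.46 and Pmepa1, an inhibitor of TGF-beta signalling, by -1.88. In cells of 2000 genes or more these were 0.62 for Ctgf, 1.28 for Thbs1, 1.46 for Postn and -3.00 for Pmepa1, and Skil was also lower by at least 1. The list median, here and below taken over all 12 genes, was -0.16, against 0.11 over all genes compared. In pregnant basal against pregnant luminal cells, 6 of the 11 were higher and 0 lower, beside 3.97% and 12.3% of all genes, with a list median of 1.17 against -0.10 over all genes; Postn (6.78) and Ctgf (3.99) differed by the most.

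The main fibrillar collagens of fibroblasts were rarely found. In pregnant basal cells, Col1a1 was found in 0, Col3a1 in 3 and Col1a2 in 5 cells. Of 16 collagens and associated genes, 15 could be compared, and 1 was higher and 0 lower in pregnant than in virgin basal cells. Beside this, 9.43% of all genes were higher and 0.373% lower. The 1 was Col14a1, a fibril-associated collagen (2.05, and 1.70 among cells with at least 2000 genes). In those cells Col5a2 and Eln (elastin, -1.06) were lower by at least 1. Col14a1 averaged 24.6 FPKM in pregnant basal and 6.31 FPKM in virgin basal cells. Against pregnant luminal cells, 3 of 16 were higher and 0 lower, beside 3.97% and 12.3% of all genes. They were Col14a1 (2.81), Eln (1.29) and the fibrillar collagen Col11a1 (1.15). Of 14 processing genes, 12 could be compared, and 2 were higher and 0 lower in pregnant than in virgin basal cells. Serpinh1, the collagen chaperone HSP47, differed by 2.35 and P4hb, a prolyl hydroxylase subunit, by 1.27. Serpinh1 was at 2.02 and P4hb at 0.79 among cells with at least 2000 genes.

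Of 25 other proteoglycan core proteins, 21 could be compared, and 3 were higher and 1 lower in pregnant than in virgin basal cells, beside the 9.43% and 0.373% of all genes. Gpc1 (glypican) differed by 1.65, Vcan (versican) by 1.27, Agrn (agrin) by 1.14 and Srgn (serglycin) by -1.18. In cells of 2000 genes or more these were 0.90 for Gpc1, -0.01 for Vcan, 0.54 for Agrn and 0.12 for Srgn, so none of the 4 was past 1 there, while Gpc6 was higher (1.23) and Sdc1 and Gpc4 were lower by at least 1. Against pregnant luminal cells, 6 of 21 were higher, led by the hyaluronan receptor gene Cd44 (3.76), and 0 lower, beside 3.97% and 12.3% of all genes. Of 11 proteases known to cut the family, 7 could be compared, and 0 differed by 1 between pregnant and virgin basal cells over all cells. Among cells with at least 2000 genes Mmp14 was at 1.09 and Mmp2 at -2.04. Against pregnant luminal cells, 8 proteases could be compared, and 3 were higher and 0 lower: Adamts1 (3.48), Mmp2 (1.67) and Mmp14 (1.22).

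**Figure D5:**
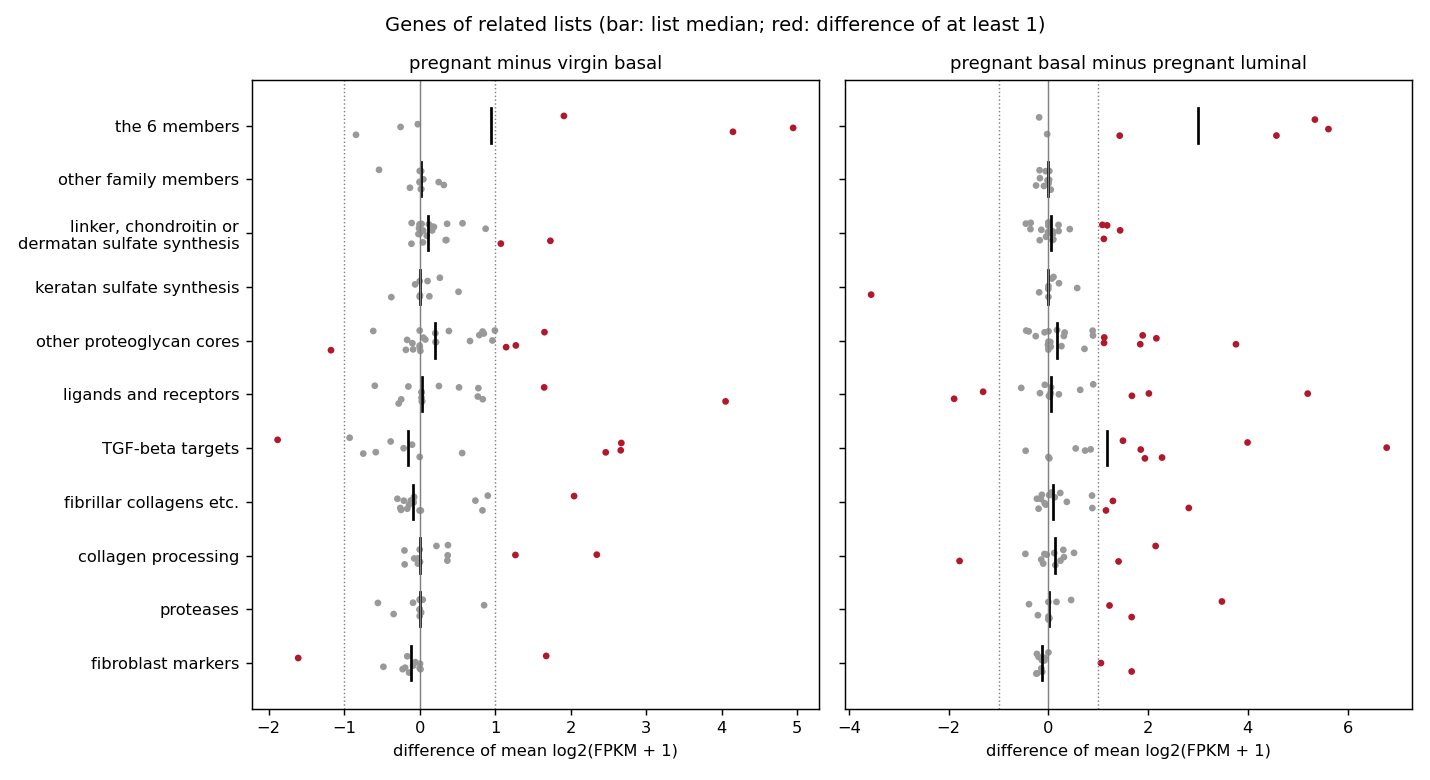
Difference of mean log2(FPKM + 1) for each gene of 11 lists (rows), in pregnant minus virgin basal cells (left) and pregnant basal minus pregnant luminal cells (right). Red points are past a size of 1 and bars are list medians, such as 0.94 and 3.00 for the 6 members.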

How the data were processed

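Cells were captured on Fluidigm C1 chips, with SMARTer complementary DNA and Nextera XT libraries, and doublets were sought under a microscope, per the labels' protocols. No doublet caller was run here. The authors deposited FPKM values for 239 cells, made with Trimmomatic 0.35, TopHat2 2.0.13 and Cufflinks 2.2.1 against mm10 (GRCm38), according to the submitters' processing notes. The unit follows from these tools and from the values. All cells and genes were kept.

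The 6 members and the 17 gene lists were chosen with earlier results of these data known. Differences of mean log2(FPKM + 1) used python 3.11.15, numpy 2.4.6, pandas 2.3.3 and scipy 1.17.1, and were tested on simulated data. Named genes were, by a fixed rule, the members, up to 4 of each list with the largest difference in either pregnant basal comparison, counted genes when 5 or fewer, the 5 most like Dcn and Fmod, 6 gate markers and the fibroblast markers. Esr1, Pgr, Cited1, Prlr, Elf5 and Kit fall outside it. Skil, Col5a2, Sdc1, Gpc4, Kcnj8 and Des are also named, but neither they nor those genes are in the count of sign changes given below. Depth used 2229 single-transcript genes. Without molecular identifiers, PCR copies cannot be told from molecules. Protein sequences were not analysed here.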

Additional observations from a re-analysis of the deposited data

How the results depend on the processing

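Of 288 alternative values for member differences under 12 settings, 258 stayed on the same side of a size of 1 as in the main setting. Another 28 crossed that size, and 2 changed sign from a main difference of at least 1. Smaller differences also changed sign, such as Ogn in pregnant minus virgin basal cells (-0.18 to 0.49), and are not among these 2. The 2 were Dcn in pregnant minus virgin luminal cells, at 0.10 in the middle cells by genes per cell (25th to 75th percentile) and 1.52 by the log2 ratio of mean FPKM. By that ratio the members higher by at least 1 were 1 in pregnant minus virgin basal, 5 in virgin basal minus virgin luminal and 4 in pregnant minus virgin luminal cells. Of all genes compared, 26.2%, 15.1% and 11.7% were higher in these comparisons. Pregnant luminal cell 37 held the highest pregnant luminal values of Dcn (4284 FPKM), Bgn (2467 FPKM) and Lum (524 FPKM), and its part in the ratios was not tested. In virgin basal minus virgin luminal cells the members higher by at least 1 were 1 with pseudocount 10 and 4 among cells with at least 2000 genes. Of all genes, 0.742% were higher with pseudocount 10 and 3.82% among cells with at least 2000 genes. Shares of pregnant basal cells with any value above 0 were 97.1% for Dcn, 98.04% for Fmod, 96.1% for Bgn, 54.9% for Prelp and 100% for 2 or more members. At 10 FPKM they were 77.5% for Fmod and 21.6% for Prelp, and between the percentiles 95.3% had 2 or more members. Of the 5 genes most like Dcn, 3 were shared with pseudocount 10, 2 by Spearman rho and 3 among cells with at least 2000 genes; for Fmod, 3 were shared with pseudocount 0.1, 3 by Spearman rho and 3 among cells with at least 2000 genes. Genes higher in pregnant than virgin basal cells were 9.43% over all cells, 19.6% with pseudocount 0.1, 2.42% with pseudocount 10, 14.2% with values rescaled to one common sum per cell and 26.2% by the ratio of means. The higher share of the genes past 1 was 96.2% over all cells, 58.2% between the percentiles and 68.8% by the ratio of means.

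Other named genes changed sign in 15 of 4752 values, counted only where the main difference was at least 1 in either direction. In pregnant minus virgin basal cells with at least 2000 genes these were Esam (0.21), Fabp4 (0.24), Itgb1 (-0.22), Srgn (0.12) and Vcan (-0.0123), and between the percentiles Esam (0.20), Fabp4 (1.28), Gpc1 (-0.64), Itgb1 (-0.78) and Srgn (0.11). By the ratio of means it was Krt14 (-0.13). In virgin basal minus virgin luminal cells they were Emcn (-0.0016) with at least 2000 genes, and Fabp4 (-0.0187) and Gpc1 (1.05) between the percentiles. In pregnant minus virgin luminal cells it was Ctgf (-1.35) by the ratio of means. The cause was not tested. The alternatives that leave out marker-discordant cells, and the counts of members found together in cells with at least 2000 genes, were chosen after seeing the data. No paired analysis was possible because the numbers in the labels only name cells and each group is 1 sample. Comparison of the members' protein sequences was not run.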

Other observations

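Outside the comparisons above, Rgs5, a pericyte marker, was found in 32 pregnant basal, 2 of 34 virgin basal, 2 of 49 pregnant luminal and 1 of 54 virgin luminal cells. Of the other pericyte markers, Pdgfrb and Cspg4 were found in at least 1 pregnant basal cell, and Notch3, Kcnj8, Abcc9 and Des in 0. Rgs5, Pdgfrb and Cspg4 were each also seen among the pregnant basal cells with all of Dcn, Fmod and Bgn. No pregnant basal cell had more than 2 of 7 pericyte markers. Fbn1, the fibrillin gene used as a fibroblast marker, was found in 54 pregnant basal and 5 of 34 virgin basal cells, a difference of 1.68, and of 1.13 among cells with at least 2000 genes. Gsn, the gelsolin gene, another of these markers, was found in 30 pregnant basal and 15 of 34 virgin basal cells, a difference of -1.61, and of -1.90 among cells with at least 2000 genes. Rgs5 differed by 2.13 between pregnant and virgin basal cells among those with at least 2000 genes.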
